A study of Mus musculus with 25 samples.

Results

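The genes described here encode the proteins of the cytosolic ribosome. They were chosen by name: protein-coding entries whose symbol starts with Rpl or Rps and a digit, or is Rplp0, Rplp1, Rplp2 or Rpsa, leaving out the Rps6 kinases, and an FPKM of 0.5 or more in 5 or more libraries. FPKM counts fragments relative to gene length and to the depth of the library. The length is the deposited gene length, with a median of 1730 bases for the genes kept. Differences in level between genes, or between a gene and its copy, therefore depend on that length as well as on reads. The name pattern fitted 94 genes of the 54532 listed, and 86 of these were among the 16450 genes that passed the level filter and were tested. They comprised 43 proteins of the large subunit, 31 of the small subunit, the 3 proteins of the stalk, 4 paralogues (Rps27l, Rps27rt, Rpl22l1 and Rpl7l1), 4 entries with pseudogene names (Rpl10-ps3, Rpl27-ps3, Rpl9-ps6 and Rps12-ps3), and Rps19bp1, which encodes a protein that binds Rps19 and is not itself part of the ribosome. The 8 genes below the filter were Rpl10l, Rpl13a-ps1, Rpl36-ps4, Rpl36a-ps1, Rpl36al, Rpl39l, Rpl3l and Rpl9-ps1. The pattern does not catch some genes that also encode ribosomal proteins, of which Rack1 and Fau are given separately.

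The cytosolic ribosome is built from ribosomal RNA and a protein complement that is needed in near-equal amounts in every cell. The messenger RNAs of these proteins begin with a pyrimidine-rich tract, called a terminal oligopyrimidine or TOP motif, through which the mTOR kinase pathway controls their translation. In neurons they are also found in dendrites and axons, where local translation takes place, and in the genome most of them have many processed pseudogenes, which are copies made from the spliced messenger RNA.

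The study measured gene expression in the cortex of mice by sequencing poly(A)-selected RNA, with 5 mice in each of 5 groups. The groups were 5xFAD mice given vehicle (AD_Veh), 5xFAD mice given a low dose of P (AD_LowP), 5xFAD mice given a high dose of P (AD_HighP), wild-type mice given a high dose of P (WT_HighP) and wild-type mice given vehicle (WT_Veh). The 5xFAD line carries mutant human transgenes, APP among them, driven by Thy1 sequences, which act mainly in neurons, and deposits amyloid. P is described as derived from a natural product. Its identity and doses, the time of treatment and the age of the mice are not named in the sources at hand.

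Reads assigned to genes numbered 15518358 to 17698222 per library, and the 86 genes took 0.733% to 1.00% of them. Markers of excitatory neurons were present in every library, with summed levels of 985 to 1978 FPKM over 5 genes. Striatal markers had median sums of 233, 117, 73.5, 288 and 284 FPKM in AD_Veh, AD_LowP, AD_HighP, WT_HighP and WT_Veh. Meningeal markers had median sums of 195, 249, 316, 244 and 125 FPKM in the same order. The part of these tissues in the comparisons was not tested. All 5 markers of plaque-associated microglia were called higher in AD_Veh than in WT_Veh. Some libraries stood apart. Ttr, a choroid plexus gene, was above 10 times its median in 5 libraries (WT_HighP 1 and 2, AD_HighP 1 and 4, WT_Veh 1). Mitochondrially encoded transcripts took 6.61% to 6.83% of reads in 4 5xFAD libraries (AD_Veh 4 and 5, AD_LowP 1 and 2) and 3.63% to 5.20% in the other 11. They took 3.96% to 4.71% in WT_HighP and 5.89% to 6.64% in WT_Veh, with no overlap. The GC slope of a library, the change of its log2 levels relative to the mean library per 10 points of gene GC content, was 0.10 to 0.23 in WT_HighP and -0.29 to 0.07 in WT_Veh.

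Several of these genes have near copies, and the first is shown because it limits what the reads of a pair can say. Rps27 encodes a zinc finger protein of the small subunit (chromosome 3, 90212522 to 90213651, minus strand, mm10; 4 annotated exons). Rps27rt lies on chromosome 9 (114982366 to 114982739, minus strand), has 1 exon, and its 255 coding bases are the same as those of Rps27 at 255 of 255 positions. Rps27l, the other paralogue (chromosome 9, 66946086 to 66949516, plus strand), equals Rps27 at 178 of the first 255 coding positions when set side by side without gaps. The first 120 coding bases, counted from the A of the start codon, come from the transcripts of a GENCODE annotation of the same assembly, with bases that differ from Rps27 in capitals.
Rps27: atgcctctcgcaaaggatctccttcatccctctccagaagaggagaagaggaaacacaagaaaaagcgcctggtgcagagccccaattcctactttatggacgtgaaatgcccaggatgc
Rps27rt: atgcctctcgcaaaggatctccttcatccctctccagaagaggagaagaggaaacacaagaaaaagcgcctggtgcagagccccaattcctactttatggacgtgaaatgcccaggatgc
Rps27l: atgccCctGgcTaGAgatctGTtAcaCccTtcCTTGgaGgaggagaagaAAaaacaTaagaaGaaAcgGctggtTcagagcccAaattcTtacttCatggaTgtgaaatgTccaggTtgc
A read that lies within the coding part of Rps27 or Rps27rt therefore cannot be placed on 1 of the 2 genes by sequence, while Rps27l differs at 28 of these 120 positions.

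Promoters are shown for the 7 genes that passed the test in a comparison given later and have an entry in the RefSeq table of GRCm38.p6. Each window runs from 40 bases before the annotated start of transcription to 15 bases from it. Capitals mark the longest run of C or T, of at least 6 bases, that touches the stretch from 5 bases before to 10 bases after the start. Where runs have the same length, only the first is marked.
Rps27 (chr3:90213634-90213688, minus strand): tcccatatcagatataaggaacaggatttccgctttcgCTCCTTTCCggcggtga
Rps27rt (chr9:114982725-114982779, minus strand): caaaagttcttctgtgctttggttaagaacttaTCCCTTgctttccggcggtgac
Rpl22l1 (chr3:28805468-28805522, plus strand): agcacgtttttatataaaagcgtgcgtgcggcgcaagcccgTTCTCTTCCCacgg
Rpl37a (chr1:72711220-72711274, plus strand): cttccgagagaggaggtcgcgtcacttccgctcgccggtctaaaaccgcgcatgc
Rpl34 (chr3:130730384-130730438, minus strand): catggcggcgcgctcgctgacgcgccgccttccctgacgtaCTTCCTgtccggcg
Rps21 (chr2:180257339-180257393, plus strand): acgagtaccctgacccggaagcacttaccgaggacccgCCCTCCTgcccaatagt
Rps9 (chr7:3704001-3704055, plus strand): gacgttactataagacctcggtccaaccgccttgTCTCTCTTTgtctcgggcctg
Rps27, Rps27rt, Rpl22l1, Rpl34, Rps21 and Rps9 had such a run, of 9, 6, 10, 6, 7 and 9 bases, and Rpl37a had none at the start listed. Rps27rt has a further run of 6 bases, which begins at the start itself and is left in lower case. Of the 60 genes with an entry whose start lay within 2000 bases of the deposited gene end, 30 (50%) had such a run, against 24.4% of all 32851 promoters in the table. The motif CCGGAAG, read on both strands over the 300 bases of an entry, stood in 24 of the 60 (40%), against 8.86% of all promoters. Among the 7 genes shown, only the entry of Rps21 held it. The 60 entries were chosen by distance, a single entry for each gene past the level filter, while the 32851 were taken without such a choice. The shares set beside each other are therefore not of entries chosen alike. These are matches of letters, not measured binding.

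Ribosomal protein genes were expressed at high but uneven levels. The median of the 86 was 43.4 FPKM over the 25 mice, against 4.24 FPKM for all tested genes. The stalk protein Rplp1, part of the structure that recruits elongation factors, had the highest level of the set at 773 FPKM, while its partner Rplp2 had 30.7 FPKM and the stalk base Rplp0 had 95.6 FPKM. The large subunit genes had a median of 46.3 FPKM and the small subunit genes one of 44.1 FPKM, with Rps3a1 (286 FPKM), Rps15 (258 FPKM) and Rpl4 (202 FPKM) highest. At the low end, Rps10 had 0.723 FPKM, Rpl24 0.962 FPKM, Rps28 2.90 FPKM, Rpl13a 4.14 FPKM and Rpl21 4.83 FPKM, although each of these proteins is a stoichiometric part of the ribosome.

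**Figure D1:**
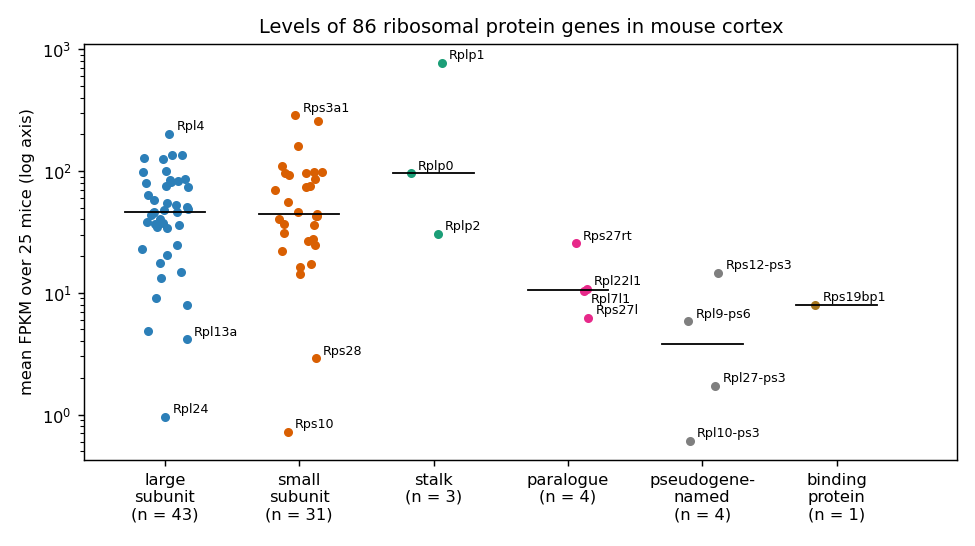
Mean FPKM over 25 mice of each of the 86 genes, on a log axis, by role; each point is a gene and the black line is the median of its role. The large and small subunits have like medians (46.3 and 44.1 FPKM) with a few genes, such as Rps10 and Rpl24, below 1 FPKM, and Rplp1 stands highest at 773 FPKM.

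Most of these genes have copies elsewhere in the genome. For 28 of the 85 genes with an annotated coding sequence, every 50-base word of that sequence was also present in transcripts of other genes. For 71 at least 50% of the sequence was shared in this way, and 2 genes, Rps19bp1 among them, shared none. Transcripts of genes that overlap the gene itself also counted, so these numbers are not of copies alone. In 14 genes the copy with the highest mean FPKM had a higher level than the gene itself. Among the 14 are Rpl10-ps3, Rpl9-ps6, Rps12-ps3 and Rps27rt, for which that copy is Rpl10, Rpl9, Rps12 and Rps27 in turn. For these it is the entry with the pseudogene name, or the single-exon paralogue, that lies below. Rps10-ps2 had 34.7 FPKM against 0.723 FPKM for Rps10, Rpl21-ps15 had 67.6 FPKM against 4.83 FPKM for Rpl21, and Gm10443 had 11.2 FPKM against 2.90 FPKM for Rps28. Rpl17, one of the better expressed genes at 86.1 FPKM, was also below its copy Rpl17-ps10 at 162 FPKM. The sources at hand do not say how the authors assigned reads that fit several places, so the level of a gene with such a copy is uncertain.

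The genes also differed in how steady they were over the mice. Rpl6 varied least, with 66.6 to 83.6 FPKM over the 25 mice and an SD of 0.083 on the log2 scale, with Rpl7l1, Rpl9 and Rpl4 also among the steadiest. The median SD was 0.22 for the 86 genes and 0.26 for all tested genes. Rps27rt varied most, with an SD of 1.33, followed by Rps27 (0.89), Rps12-ps3 (0.80), Rpl23a (0.76), Rps29 (0.75) and Rpl39 (0.69). The map of deviations by mouse shows that these genes were high together in AD_Veh 3 to 5 and AD_LowP 1 and 2, and low together in the 5 WT_HighP mice.

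**Figure D2:**
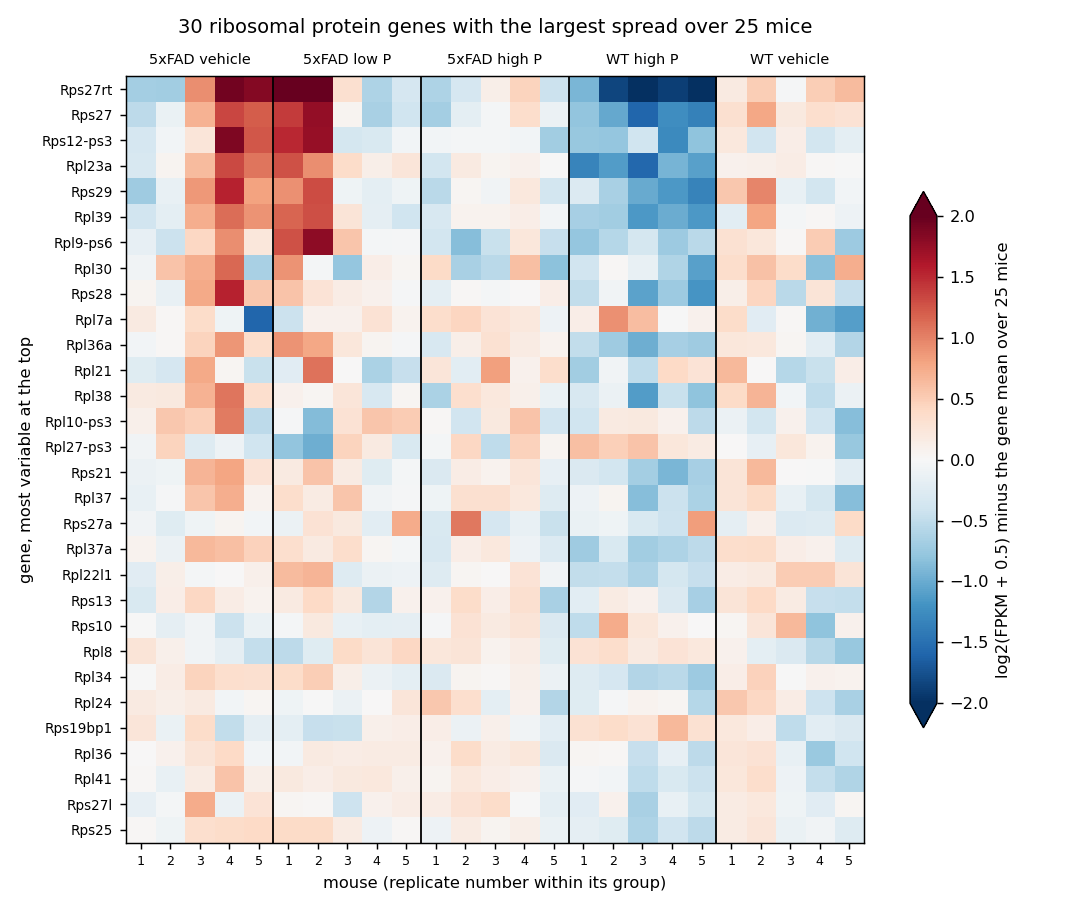
Deviation of each gene from its own mean over 25 mice, in log2(FPKM + 0.5), for the 30 of the 86 genes with the largest spread; columns are mice by replicate number, red is above the mean and blue below, with colours ending at 2 in either direction. Rps27rt, Rps27, Rpl23a, Rps29 and Rpl39 are red in AD_Veh 4 and 5 and AD_LowP 1 and 2 and blue in all 5 WT_HighP mice.

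The comparison of AD_Veh with WT_Veh asks what the transgenes change in untreated mice. None of the 86 genes passed the test in either direction, while small upward differences were common among them. Of the 86 genes, 77 had a log2 fold change above 0, against 46.1% of all tested genes, and their median was 0.16 on the log2(FPKM + 0.5) scale, against -0.02 for all. By role, 39 of 43 large subunit genes, 28 of 31 small subunit genes and 3 of 3 stalk genes were above 0, with medians of 0.16, 0.16 and 0.26. The medians of the 86 genes in single mice overlapped between the groups. As log2 deviations from the mean of all mice they were 0.02, 0.03, 0.18, 0.15 and 0.05 in AD_Veh, against 0.09, 0.12, -0.05, -0.20 and -0.25 in WT_Veh. WT_Veh 4 and 5, the lowest, also had the lowest GC slopes of the wild-type libraries (-0.28 and -0.29). With a correction of each library for GC content, 0 of 86 were called higher (all genes 3%). Over all settings other than leaving out single libraries, that correction among them, the median fold change of the 86 genes lay between 0.11 and 0.18. In a tissue sample, a different number of cells of a type and a different amount of RNA per cell cannot be told apart.

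At an adjusted p under 0.05 (limma, Benjamini-Hochberg over 16450 genes), 0 of 86 were called higher, where 2.83% of all genes were, and 0 were called lower, where 0.274% of all genes were. At an unadjusted p under 0.05, 17 were higher (all genes 7.08%) and 2 lower (all genes 4.35%). Voom on recovered reads called 1 higher, Rps3 (all genes 2.74%). The groups did not overlap for 1 gene that was higher, Rpl10a (all genes 3.02%), and 1 that was lower, Rpl22l1 (all genes 0.821%).

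Rps3, which lies at the entry of the messenger RNA channel, had the smallest adjusted p. It measured 43.6, 43.5, 43.0, 45.9 and 39.1 FPKM in AD_Veh mice, against 40.6, 38.7, 33.6, 30.7 and 26.6 FPKM in WT_Veh mice. The AD_Veh mice were even and the WT_Veh mice spread downward, with WT_Veh 1 above AD_Veh 5, and the log2 fold change was 0.35 ± 0.10 (SE; limma adjusted p = 0.0514). Rpl23, a large subunit protein, measured 36.0, 39.7, 39.2, 43.4 and 31.7 FPKM in AD_Veh, against 39.4, 31.4, 26.1, 22.6 and 27 FPKM in WT_Veh. Here too the groups overlapped, through WT_Veh 1, and the log2 fold change was 0.39 ± 0.11 (SE; adjusted p = 0.0627). Rplp0 measured 106, 102, 109, 122 and 86.2 FPKM in AD_Veh, against 96.7, 89.7, 85.5, 70.4 and 77.0 FPKM in WT_Veh (log2 fold change 0.32, adjusted p = 0.0734).

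The largest positive values were those of Rps12-ps3 (0.72), Rpl10-ps3 (0.65), Rps28 (0.59), Rpl23a (0.48) and Rpl38 (0.41), with adjusted p-values of 0.342 to 0.519. Rpl38 is known in mice for its part in translating Hox messenger RNAs. The lowest values were those of Rpl22l1 (-0.33, adjusted p = 0.384) and Rpl17 (-0.32, adjusted p = 0.161), and Rps10 (-0.21) and Rpl7l1 (-0.07) were also below 0. Fau, which encodes a ubiquitin-like protein fused to a small subunit protein, was called higher, at 133 ± 8.24 FPKM in AD_Veh and 98.7 ± 21.5 FPKM in WT_Veh (SD, n = 5 each; log2 fold change 0.46, limma adjusted p = 0.0473). Rack1, the scaffold on the small subunit, had a log2 fold change of 0.13 (adjusted p = 0.592).

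Library measures moved with these values. Within AD_Veh, Rps27 measured 21.2, 27.8, 50, 78.1 and 71.3 FPKM, and the 2 libraries above 70 FPKM were those with 6.73% and 6.61% mitochondrial reads. The WT_Veh mice had 38.3, 52.8, 35.2, 38.9 and 37.6 FPKM of Rps27. Without the 4 5xFAD libraries above 6% mitochondrial reads, a setting chosen after seeing the data, Rplp0 (0.34, adjusted p = 0.0399) and Rps9 (0.50, adjusted p = 0.0212) were called higher, beside 3.9% of all genes. With the mitochondrial share as a term in the model, also chosen after seeing the data, 9 were called higher (Rps12-ps3, Rps27rt, Rpl23a, Rpl39, Rps27, Rpl36a, Rps6, Rpl5 and Rps4x, from 0.23 to 1.20), beside 3.05% of all genes. Leaving out AD_Veh 5 alone gave 4 calls, WT_Veh 1 gave 3, and WT_Veh 2, AD_LowP 1, AD_LowP 3 and AD_HighP 5 gave 1 each. The share of all genes called in these fits is not given here, so the counts cannot be set beside it. Summed levels of 5 microglia markers were 159 to 228 FPKM in AD_Veh and 59.3 to 97.3 FPKM in WT_Veh, with none at 0, and their part in these values was not tested.

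**Figure D3:**
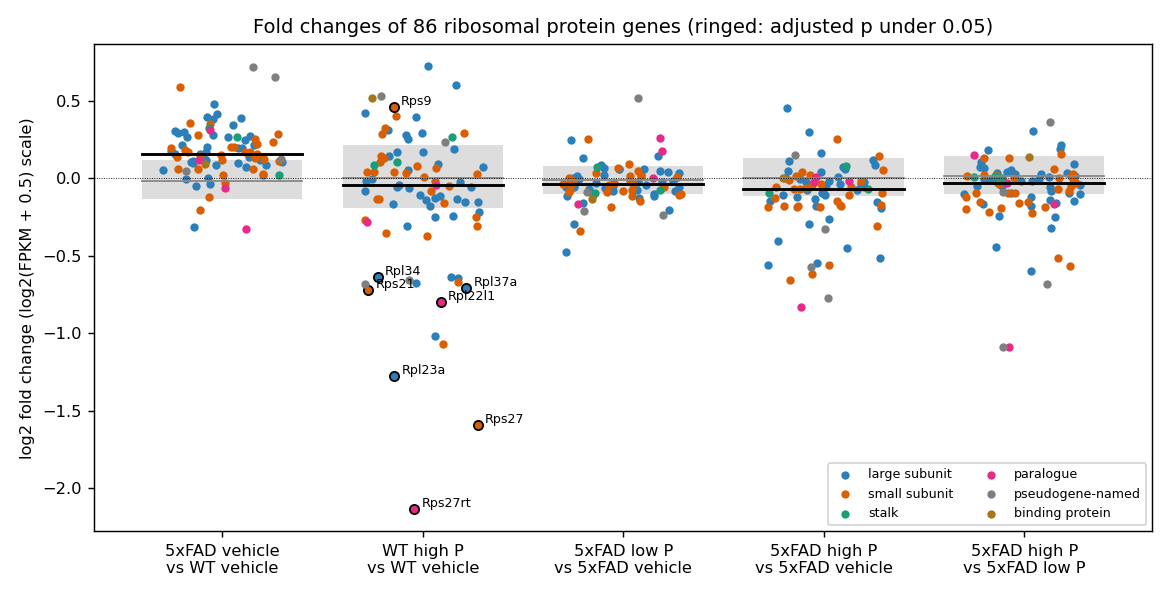
Log2 fold changes of the 86 genes in the 5 comparisons of groups, coloured by role, with genes past an adjusted p of 0.05 ringed and named. Black lines are medians of the 86 genes, grey lines and bands the median and the middle 50% of all 16450 tested genes; the 86 lie above the band's middle in 5xFAD vehicle against WT vehicle mice (median 0.16), and the 8 ringed genes are all in WT high P against WT vehicle mice.

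The comparison of WT_HighP with WT_Veh asks what the high dose does in mice without the transgenes. It held all 8 calls among the 86 genes. Rps27, Rps27rt, Rpl23a, Rpl22l1, Rps21, Rpl37a and Rpl34 fell and Rps9 rose. Of the 86 genes, 7 (8.14%) were called lower, against 1.79% of all tested genes, and 1 (1.16%) higher, against 1.39%. Of the 86, 37 were above 0, against 50.1% of all genes, and the median was -0.05, against 0.00 for all. At an unadjusted p under 0.05, 23 were lower (all genes 14.1%) and 13 higher (all genes 13.8%). The groups did not overlap for 14 genes that were lower (all genes 4.69%) and 3 that were higher (all genes 4.72%).

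Rps27 measured 17.5, 14.8, 9.79, 12.6 and 11.6 FPKM in WT_HighP mice, against 38.3, 52.8, 35.2, 38.9 and 37.6 FPKM in WT_Veh mice. Every WT_HighP mouse was far below the lowest WT_Veh mouse, and the log2 fold change was -1.59 ± 0.38 (SE; limma adjusted p = 0.0375). Rps27rt, its single-exon double, measured 8.47, 4.23, 3.07, 4.09 and 3.66 FPKM in WT_HighP, against 18.8, 23.2, 16.1, 23.4 and 25.8 FPKM in WT_Veh. These groups did not overlap either, and the log2 fold change was -2.14 ± 0.57 (SE; adjusted p = 0.0461). Rps27l, which shares less sequence, measured 5.13, 6.54, 3.70, 5.48 and 4.67 FPKM in WT_HighP and 6.91, 7.17, 5.71, 5.15 and 6.31 FPKM in WT_Veh, and the groups overlapped.

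Rpl23a, a large subunit protein beside the exit of the peptide tunnel (chromosome 11, 78180932 to 78183584, minus strand), measured 14.0, 16.1, 11.6, 18.4 and 16.4 FPKM in WT_HighP, against 37.8, 38.1, 39.5, 36.1 and 35.1 FPKM in WT_Veh. Both groups were tight and far apart, with a log2 fold change of -1.27 ± 0.24 (SE; adjusted p = 0.0263). Rpl22l1, a paralogue whose product can take the place of Rpl22, measured 7.31, 7.34, 6.66, 8.07 and 7.42 FPKM in WT_HighP, against 11.6, 12, 15, 15 and 12.6 FPKM in WT_Veh. All WT_HighP mice were lower (log2 fold change -0.80 ± 0.15, SE; adjusted p = 0.0263). Rpl22 itself averaged 22.8 ± 2.10 FPKM in WT_HighP and 23.4 ± 1.5 FPKM in WT_Veh (SD, n = 5 each).

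Rps21, a small subunit protein, averaged 27.8 ± 5.01 FPKM in WT_HighP and 46.6 ± 11.5 FPKM in WT_Veh (SD, n = 5 each; log2 fold change -0.72, adjusted p = 0.0442). Rpl37a, a zinc-binding protein of the large subunit, averaged 22.3 ± 2.71 FPKM in WT_HighP and 37.0 ± 6.23 FPKM in WT_Veh (-0.71, adjusted p = 0.0267). Rpl34, also of the large subunit, averaged 25.6 ± 3.41 FPKM in WT_HighP and 40.1 ± 5.49 FPKM in WT_Veh (-0.64, adjusted p = 0.0263). None of these 3 overlapped between groups. Rps9, a small subunit protein that bears on decoding, measured 65.0, 72.0, 60.8, 57.3 and 50.1 FPKM in WT_HighP, against 52.4, 48.8, 44.6, 39.7 and 36.4 FPKM in WT_Veh. It was the 1 gene called higher (0.46 ± 0.13, SE; adjusted p = 0.0490), and its groups overlapped, since WT_HighP 5 was below WT_Veh 1.

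**Figure D4:**
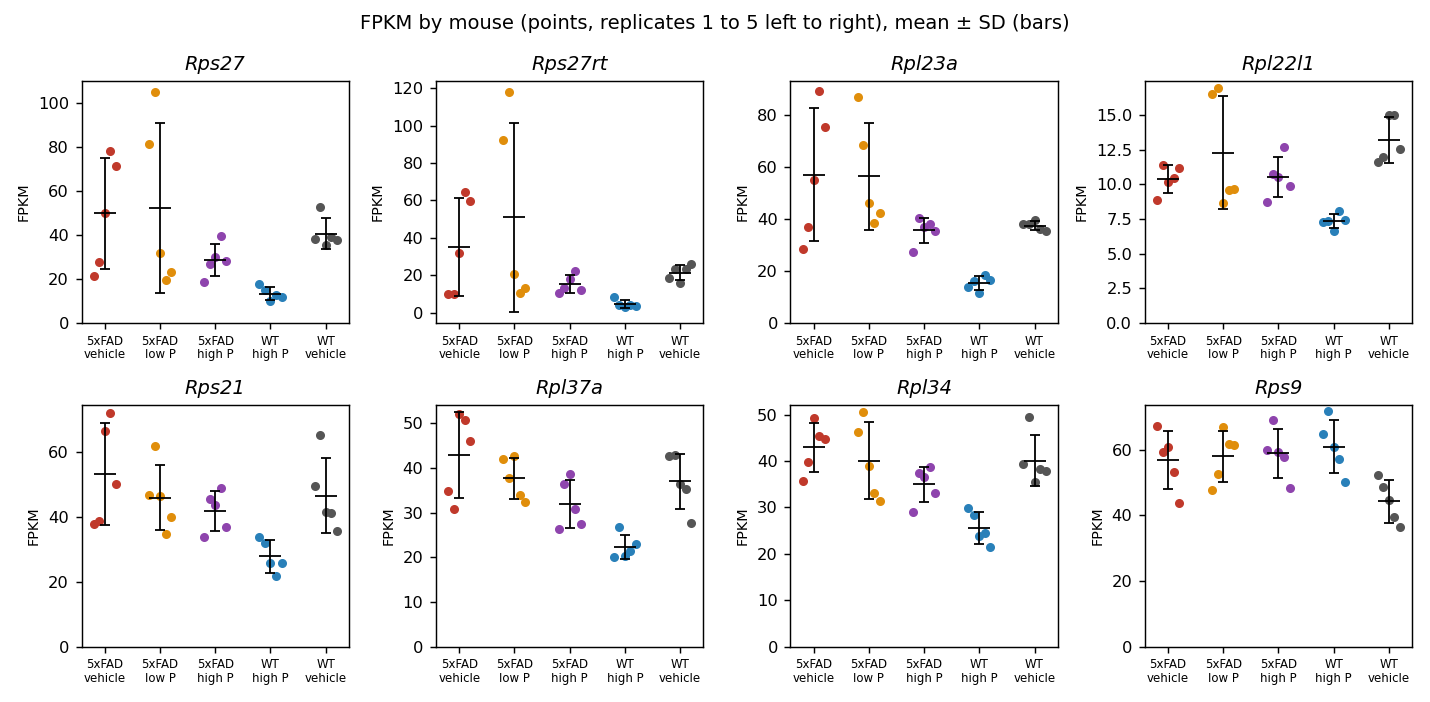
FPKM of the 8 genes called in WT high P against WT vehicle mice, by mouse, in all 5 groups; points are mice and bars are the mean and SD of 5. In the first 7 panels every WT high P mouse is below every WT vehicle mouse, and the 5xFAD vehicle and 5xFAD low P groups each hold mice far apart: Rps27 lies between 21.2 and 78.1 FPKM in 5xFAD vehicle mice and between 19.3 and 105 FPKM in 5xFAD low P mice.

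Other genes of the set lay just past the threshold. Rpl39, a small protein that lines the peptide tunnel, had a log2 fold change of -1.02 with no overlap between groups (adjusted p = 0.0539), and Rps29 one of -1.07 (adjusted p = 0.0721). Rpl36a had -0.65 (adjusted p = 0.0563) and Rpl38 had -0.64 (adjusted p = 0.082). On the other side stood Rpl7a (0.72), Rpl8 (0.60, adjusted p = 0.0517, no overlap), which lies near the peptidyl transferase centre, and Rps19bp1 (0.52, adjusted p = 0.0598, no overlap). The stalk genes had values of 0.09 to 0.27 and none was called. Rpsa, the laminin receptor, had 0.04 and Rpl10, a large subunit protein that completes the subunit, -0.11. Rps6, the target of the S6 kinases, averaged 95.5 FPKM in WT_HighP and 93.3 FPKM in WT_Veh.

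When the reads of each gene were summed with those of its annotated copies, a step added after seeing the data, the 8 genes kept their direction. Rps27 had a log2 difference of -1.67 and Rps27rt one of -1.69, which are nearly the same reads, since each is a copy of the other. Rpl34 had -0.68 and Rpl22l1 -0.78, and Rps21 (-0.72), Rpl37a (-0.70) and Rps9 (0.46), whose copies hold few reads, hardly moved. Rpl23a moved most, to -0.62. Its copy with the highest mean FPKM, Rpl23a-ps3, did not pass the test (0.11, limma adjusted p = 0.473). That copy had 36.4 ± 3.62 FPKM in WT_HighP and 33.8 ± 4.81 FPKM in WT_Veh (SD, n = 5 each). Among 181 tested copies, 3 were called higher, where 1.39% of all tested genes were, and 3 lower, where 1.79% were. Such counts are too small to set apart from those shares. One of the called copies, Gm10275, the copy of Rpl12 with the highest mean FPKM, fell (log2 fold change -0.53, limma adjusted p = 0.0356). Gm10275 had 50.6 ± 4.27 FPKM in WT_HighP and 73.5 ± 6.72 FPKM in WT_Veh.

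The mitochondrial share and the GC slope separated the same groups, and the 5xFAD mice with the highest Rps27 had the highest mitochondrial shares in the plot of Rps27 beside these measures. With the mitochondrial share as a term in the model, none of the 86 genes was called lower (all genes 0%) and the differences were smaller: -0.26 for Rps27 (adjusted p = 0.822), -0.19 for Rps27rt, -0.54 for Rpl23a, -0.41 for Rpl22l1, -0.47 for Rpl37a, -0.30 for Rpl34, -0.30 for Rps21 and 0.23 for Rps9. Since all 5 WT_HighP libraries had a lower share than all 5 WT_Veh libraries, the share and the treatment cannot be told apart in these groups. At a like share, 4.24% to 4.62% of reads, Rps27 had 21.2, 31.7, 29.7 and 28.1 FPKM in AD_Veh 1, AD_LowP 3, AD_HighP 3 and AD_HighP 5. At shares of 3.83%, 3.87% and 3.63%, AD_HighP 1, AD_LowP 4 and AD_LowP 5 had 18.8, 19.3 and 23.0 FPKM. The 5 WT_HighP mice had 9.79 to 17.5 FPKM. They differ from these 5xFAD mice in genotype as well, so the part of the share was not tested by these values. With a correction of each library for GC content, Rpl22l1 (-0.60, adjusted p = 0.0454), Rpl23a (-1.24, adjusted p = 0.0384), Rpl34 (-0.87, adjusted p = 0.0435) and Rpl37a (-1.05, adjusted p = 0.0289) were still called lower, beside 0.0608% of all genes. Under that correction Rps27, Rps27rt, Rps21 and Rps9 were not called (adjusted p 0.105 to 0.174), with differences of -1.81, -2.02, -0.77 and 0.36 in that order.

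**Figure D5:**
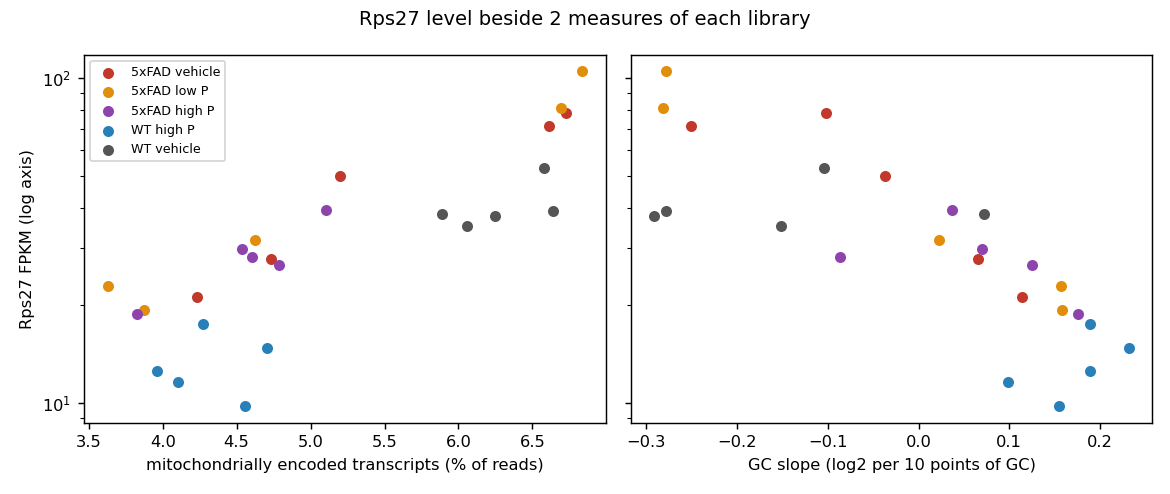
Rps27 in FPKM, on a log axis, beside the share of reads on mitochondrially encoded genes and the GC slope of each library; each point is a mouse, coloured by group. Rps27 is highest (71.3 to 105 FPKM) in the 4 5xFAD mice with 6.61% to 6.83% mitochondrial reads, and the 5 WT high P mice (9.79 to 17.5 FPKM) lie lowest, at 3.96% to 4.71%.

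The calls lay close to the threshold, and most were lost when a library was left out, while the differences stayed near their values. Leaving out 1 of the 10 wild-type libraries ended the call of Rps27rt and Rps21 in 9 of 10 cases, of Rps27 and Rps9 in 8, of Rpl34 and Rpl37a in 7, and of Rpl23a and Rpl22l1 in 6, with adjusted p-values of 0.0519 to 0.15. Without WT_HighP 1, 2, 3 or 4, or WT_Veh 4 or 5, there were 0 calls lower, while over all libraries left out singly the difference stayed between -1.69 and -1.49 for Rps27, -2.35 and -2.02 for Rps27rt, -1.34 and -1.18 for Rpl23a, -0.84 and -0.75 for Rpl22l1, and 0.39 and 0.53 for Rps9. Without WT_Veh 2 there were 2, without WT_Veh 3 there were 4, without WT_HighP 5 there were 5, and without WT_Veh 1 there were 10 lower and 10 higher. These counts are given without the share of all genes called in the same fits, so they are not read as particular to the set. Leaving out the 5 libraries with high Ttr, of which WT_HighP 1 and 2 and WT_Veh 1 belong here, left 0 of 86 called lower (all genes 0%), with -1.80 for Rps27 and -1.26 for Rpl23a (adjusted p = 0.136 for each). Choroid plexus markers summed to 5.88 to 843 FPKM in WT_HighP and 2.93 to 62.5 FPKM in WT_Veh. Without the 4 5xFAD libraries above 6% mitochondrial reads, which enter only through the shared estimate of the spread, 18 were called lower (all genes 9.09%) and 9 higher (all genes 10.2%).

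In 5xFAD mice no dose of P moved a ribosomal protein gene past the threshold. For AD_LowP against AD_Veh, 0 of 86 were called (all genes 0%) and 29 were above 0 (all genes 46.8%), with a median of -0.04 against -0.01 for all genes. At an unadjusted p under 0.05 there was 1 gene, Rpl38, which was lower (-0.48; all genes 1.94%). Rpl38 measured 38.5, 37.3, 43.2, 29.0 and 37.4 FPKM in AD_LowP, against 41.1, 41.7, 59.0, 76.8 and 45.9 FPKM in AD_Veh, so that the groups overlapped through AD_LowP 3. Rpl9-ps6 had the highest value (0.52) and rested on AD_LowP 1 and 2, at 13.1 and 18.9 FPKM, the other AD_LowP mice having 4.95 to 7.77 FPKM and the AD_Veh mice 3.67 to 10.2 FPKM.

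For AD_HighP against AD_Veh, 0 of 86 were called (all genes 0.00608%), 22 were above 0 (all genes 50.6%) and the median was -0.07, against 0.00 for all. By role, 31 of 43 large subunit genes and 25 of 31 small subunit genes were below 0. In single mice, the medians of the 86 genes, as log2 deviations from the mean of all mice, overlapped between the groups. They were -0.04, 0.12, 0.03, 0.09 and -0.14 in AD_HighP, against 0.02, 0.03, 0.18, 0.15 and 0.05 in AD_Veh. At an unadjusted p under 0.05, 8 were lower (all genes 3.47%) and 0 higher (all genes 2.51%). Voom on recovered reads called 0. Rps27 measured 18.8, 26.6, 29.7, 39.3 and 28.1 FPKM in AD_HighP, against 21.2, 27.8, 50, 78.1 and 71.3 FPKM in AD_Veh. The AD_HighP mice lay among the lower AD_Veh mice, and the log2 fold change was -0.66 (adjusted p = 0.780). Rpl23a measured 27.4, 40.5, 36.7, 37.8 and 35.1 FPKM in AD_HighP, against 28.4, 36.8, 55.0, 89.0 and 75.3 FPKM in AD_Veh (-0.56, adjusted p = 0.780). Rps27rt (-0.83), Rps12-ps3 (-0.77) and Rps29 (-0.62) were also low, and Rpl7a (0.46), Rpl21 (0.30) and Rps10 (0.25) highest, all uncalled. Mitochondrial shares were 3.83% to 5.10% in AD_HighP and 4.24% to 6.73% in AD_Veh. With the share as a term in the model, 0 of 86 were called higher and 0 lower (all genes 0%). The differences of single genes under that term are not given here.

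Between the doses, AD_HighP against AD_LowP, 0 of 86 were called (all genes 0%), 34 were above 0 (all genes 52.5%), and 3 were lower at an unadjusted p under 0.05 (all genes 2.44%). Rpl9-ps6 measured 3.87, 2.61, 3.63, 6.12 and 3.61 FPKM in AD_HighP, against 13.1, 18.9, 7.77, 4.95 and 5.06 FPKM in AD_LowP. The groups overlapped through AD_HighP 4, and the log2 fold change was -1.09 (adjusted p = 0.735). Rps27 measured 81.2, 105, 31.7, 19.3 and 23.0 FPKM in AD_LowP mice, and the first 2 are the libraries with 6.69% and 6.83% mitochondrial reads. These comparisons share the AD_Veh or AD_LowP mice, and the 2 comparisons with WT_Veh share the WT_Veh mice, so their values are not independent of each other.

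Whether the high dose acted differently in 5xFAD and wild-type mice was tested as an interaction. None of the 86 genes was called (all genes 0%), 41 were above 0 (all genes 49.3%), and at an unadjusted p under 0.05 there were 2 above (all genes 3.62%) and 6 below (all genes 3.29%). Rpl22l1 had the smallest p. Its difference was -0.80 between WT_HighP and WT_Veh and 0.01 between AD_HighP and AD_Veh, which gives an interaction of 0.81 ± 0.21 (SE; limma adjusted p = 0.602). It measured 8.70, 10.8, 10.5, 12.7 and 9.92 FPKM in AD_HighP and 8.85, 11.4, 10.1, 10.5 and 11.2 FPKM in AD_Veh, values that overlap throughout. Array weights, which give less weight to uneven libraries, called this gene (adjusted p = 0.0468). Rps27 (0.93) and Rps27rt (1.31) had larger but less certain interactions, and the stalk genes had values of -0.18 each.

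Genes that serve the ribosome were looked at by list. In WT_HighP against WT_Veh, where 3.17% of all genes were called in either direction, 2 of 38 initiation factor genes rose and 2 fell. Eif3g, a subunit of the initiation factor that binds the small subunit, rose to 18.3 ± 1.65 FPKM in WT_HighP, against 11.7 ± 1.61 FPKM in WT_Veh (SD, n = 5 each; 0.63, adjusted p = 0.0263). Eif6, which keeps free large subunits from joining, rose as well (0.50, adjusted p = 0.0483), while Eif5 (-0.37, adjusted p = 0.0435) and Eif2a (-0.45, adjusted p = 0.0468) fell. Of 58 ribosome biogenesis genes, Aamp rose (0.35) and Riok3 (-0.37) and Gnl3 (-0.43), a nucleolar GTPase, fell. Of 27 genes of the mTOR and S6 kinase pathway, Rps6kb1, the kinase that phosphorylates Rps6, fell (-0.41, adjusted p = 0.0424), as did Larp4 (-0.41). Of 17 elongation and TOP messenger RNA genes 1 fell, Naca (-0.30), whose product binds nascent chains, and of 10 tested snoRNA host genes Snhg11 (-0.66) and Snhg14 (-0.55) fell. Genes for ribosome rescue and storage had 0 of 15 called. The median log2 fold changes of these lists lay between -0.38 for the snoRNA hosts and 0.08 for rescue and storage. Mitochondrial ribosomal protein genes, which serve a separate ribosome, had 2 of 77 called higher and 1 lower. Without a filter on low values, without the high-Ttr libraries and with the mitochondrial share in the model no gene at all was called in this comparison (all genes 0%), so the calls in these lists end there too. With GC correction 0.0729% of all genes were called higher and 0.0608% lower. Calls of the listed genes under that correction are not given here. The rank correlation (Spearman) of the log2 fold change with GC content was 0.71 over 16431 genes and 0.30 over the 86 genes. The part of GC content in the listed calls was not tested.

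In AD_Veh against WT_Veh, 3.1% of all genes were called in either direction, and 0 of 38 initiation factor genes and 0 of 15 rescue and storage genes were, counts too small to set apart from that share. Dimt1, which methylates the RNA of the small subunit, was the 1 of 58 biogenesis genes called, and it fell (1.97 ± 0.286 FPKM in AD_Veh and 3.17 ± 0.510 FPKM in WT_Veh, SD, n = 5 each; -0.57, adjusted p = 0.00276). Rps6ka1, another kinase of Rps6, rose (0.47, adjusted p = 0.0470), and Vim, whose messenger RNA is listed with the TOP genes and which reactive glia express, rose (1.63, adjusted p = 5.67e-05). Snhg11 fell (-0.61, adjusted p = 0.0405). The mitochondrial ribosomal protein genes had 0 of 77 called higher and 1 lower, with a median of -0.05. In the 3 comparisons among 5xFAD groups and in the interaction, none of these lists had a called gene.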

How the data were processed

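RNA of the cortex of 25 mice was sequenced as strand-specific poly(A) libraries, per the labels' protocols, and aligned to mm10 with HISAT2, per the submitters' processing notes. Version, counting tool and annotation: not given in the sources used here. The authors deposited FPKM values per gene and library, with gene lengths. FPKM times gene length gave whole multiples of a step for 100% of values (tolerance 0.01 read), so reads per gene could be recovered. Groups came from the labels; each library is 1 mouse per the design text.

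The 16450 genes at 0.5 FPKM or more in 5 or more libraries were tested with limma 3.58.1 in R 4.3.3 on log2(FPKM + 0.5), which understates changes of low genes. The fit used all 25 libraries, 1 mean for each group and a variance trend. Two-sided p-values received Benjamini-Hochberg adjustment in each of 6 contrasts separately, and a gene was called under 0.05. On simulated data 85% of changes with a log2 fold of 1 and 98% of those with 2 were recovered for AD_Veh against WT_Veh. Because the deposited values are not counts, count models were not used, and voom on recovered reads is an alternative. GC content, coding sequence and copies (pseudogenes or ribosomal protein genes sharing 50-base words with the coding sequence) came from a GENCODE annotation of the same assembly. Promoters came from RefSeq GRCm38.p6.

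The genes and lists were chosen with earlier results of these data known. The rule for naming took every called gene, the 5 highest and 5 lowest log2 fold changes in each contrast, Rplp0, Rplp1, Rplp2, Rpsa, Rps6, Rpl10, the Rps27, Rpl22 and Rpl36a families, and, from lists of other translation genes, called genes and otherwise up to 2 with the largest change; genes named for steadiness, level or p-value were chosen after their values were seen. Each pair of libraries differed by more than counting noise (the lowest chi-square was 5.03 per gene). Read numbers cover counting error only, since PCR duplicates cannot be recognised. A few genes are not reported here by name.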

Additional observations from a re-analysis of the deposited data

Results flagged for a closer look

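Of 195 groups of 5 mice examined for the named genes, 10 held a mouse whose gap to its nearest neighbour, relative to the range of its group, was past the limit of Dixon's test, a limit that chance passes in about 1 group in 20. Rps27a, a ubiquitin fusion of the small subunit, gave 2 of them: AD_HighP 2 had 50 FPKM, the other 4 mice having 17.3 to 21.6 FPKM, and WT_HighP 5 had 43.2 FPKM, the other 4 having 17.8 to 22.6 FPKM. WT_Veh 2 was high for Rps27 (52.8 FPKM) and for Rpl39 (35.8 FPKM), both of which are compared with WT_HighP above. Rpl7a was low in AD_Veh 5 (2.15 FPKM), Rpl30 in WT_Veh 4 (7.32 FPKM), Rplp0 in AD_LowP 1 (85.1 FPKM), Rps27l in AD_LowP 3 (4.43 FPKM) and Rps12-ps3 in AD_HighP 5 (7.28 FPKM). Rpl30-ps10, the copy of Rpl30 with the highest mean FPKM, had 74.0 FPKM in WT_Veh 4 and 12.2 to 30.8 FPKM in the other WT_Veh mice. Whether reads of Rpl30 were placed on this copy was not tested. Rps19bp1 was high in WT_HighP 4 (12.4 FPKM).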

How the results depend on the processing

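For AD_Veh against WT_Veh the count of genes called higher, 0 as reported, was 3 with scaling by total reads, 2 with quantile normalization, 1 with voom, 4 with array weights (all genes 2.72% to 3.9% in these 4), 2 without the high-Ttr libraries, 9 with the mitochondrial share as a covariate, 2 without the high-mitochondrial 5xFAD libraries, and 0 to 4 without single libraries. For WT_HighP against WT_Veh the count called higher, 1 as reported, was 3 with a filter of 1 FPKM, 0 without a filter, 0 with scaling by total reads, 0 with quantile normalization, 2 with voom, 8 with array weights (all genes 10.3%), 3 with only the groups compared (all genes 5.14%), 0 with GC correction, 0 without the high-Ttr libraries, 0 with the mitochondrial covariate, 9 without the high-mitochondrial 5xFAD libraries, and 0 to 10 without single libraries. The count called lower, 7 as reported, was 0 without a filter, 21 with array weights (all genes 10.2%), 14 with only the groups compared (all genes 4.06%), 4 with GC correction, 0 without the high-Ttr libraries, 0 with the mitochondrial covariate, 18 without the high-mitochondrial 5xFAD libraries, and 0 to 10 without single libraries. Array weights gave 1 gene in the interaction (all genes 0.0243%). Without the high-Ttr libraries, 2.47% of all genes were called higher in AD_Veh against WT_Veh. In WT_HighP against WT_Veh the shares of all genes called higher were 2.43% with the filter of 1 FPKM and 1.98% with voom. They were 1.1% with scaling by total reads, 1.03% with quantile normalization and 0.0729% with GC correction. The count called lower in that comparison was also 8 with the filter of 1 FPKM (all genes 2.85%). It was 8 with quantile normalization (all genes 1.64%) and 6 with voom (all genes 2.27%). For the fits without single libraries, such shares are not given here. The cause of these moves was not tested, apart from the smaller number of samples where libraries were left out. The 8 called genes kept their direction in every setting, and in AD_LowP and AD_HighP against AD_Veh and in AD_HighP against AD_LowP every setting gave 0 calls.

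Replicate numbers did not pair the samples: of 50 pairs with the same number, correlations of deviations ran from -0.379 to 0.273 and 11 were over 0.1. With the replicate block, 1 gene was called higher in AD_Veh against WT_Veh (all genes 2.72%), and 4 lower in WT_HighP against WT_Veh (all genes 0.693%). With GC correction and the replicate block these counts were 2 higher in AD_Veh against WT_Veh, and 1 lower and 0 higher in WT_HighP against WT_Veh. The share of all genes under that setting is not given here.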
